A study of Mus musculus with 69 samples.

Results

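The comparison described here sets FVB mouse dorsal skin 168 h (1 week) after TPA against untreated FVB dorsal skin (0 h). It uses 3 arrays of each group, 6 of the 69 Affymetrix arrays of the series, and every gene that a probe set names by a single symbol, 18820 in all. The spread of each gene was estimated from all 66 arrays with a strain and a time. These include skin of the FVB and Spret/Ei cross (F1) and skin labelled SPR. Other FVB times and F1 arrays are also set beside the comparison. FVB is an inbred laboratory strain. TPA, a phorbol ester that switches on protein kinase C, was put on the shaved back in acetone as a single dose, per the treatment protocol, 2 days after shaving, in mice aged to 8 weeks. The series' design line speaks of replicate exposure, so the number of doses behind the 168 h group is not settled here. The protocol mentions a vehicle group, but no array used here carries that label, and the 0 h skin is labelled untreated. Shaving, acetone, the week that passed and the time of day therefore cannot be told apart from TPA in this comparison. The labels do not say whether the 3 arrays of a group came from 3 separate mice, so p-values rest on the variation among arrays alone, and part of that can be technical.

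TPA applied to mouse skin sets off an acute inflammation with infiltrating neutrophils, a burst of keratinocyte division and a thickened epidermis, and these signs fade over days when the treatment is not repeated. Keratinocytes divide in the basal layer, then move up, switch to differentiation keratins and finally build the cornified envelope, a shell of cross-linked proteins such as loricrin, involucrin, small proline-rich proteins and late cornified envelope (Lce) proteins. Many of these genes sit side by side in the epidermal differentiation complex. Hair follicles in adult back skin spend much of their time at rest and express hair keratins and keratin-associated proteins in strength only when they grow.

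All values are on the log2 scale, so a difference of 1 is a 2-fold change, and values after ± are standard errors of the limma fit. Calls required a two-sided adjusted p (Benjamini-Hochberg) below 0.05 and a log2 change of 1 or more in size. All 27 FVB arrays carry the same batch label. The 6 arrays were alike in range, with medians from 5.51 to 5.61 over all probe sets, and arrays of the same group correlated at 0.965 to 0.989. Some arrays stood apart in transcripts of other tissues. Over 24 liver transcripts, untreated replicates 2 and 3 lay 0.74 and 1.20 above the untreated mean and replicate 1 lay 1.94 below it, while the 168 h arrays lay 2.44, 0.51 and 0.65 below it. Cpa1, a pancreatic digestive enzyme, read 3.64, 6.97 and 7.81 on the untreated arrays and 3.55 to 3.93 at 168 h, and Cd8a, a T cell coreceptor chain, read 4.67, 7.39 and 8.19 against 4.63 to 4.99. None of the 24 liver, 17 pancreas and 14 T cell transcripts measured was called at 168 h, and limma's unadjusted p was under 0.05 for 4, 6 and 7 of them, all lower. Over all genes that share was 14.7% in either direction. At 168 h, replicate 1 was the array farthest from untreated for 43 of the 48 genes called higher and 18 of the 24 called lower. Over 23 collagen and fibroblast genes that array lay 0.76 below the untreated mean, against 0.22 below and 0.05 above for replicates 2 and 3. The part of these differences in the results was not tested, and the main counts are given with and without these arrays.

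After 1 week, 72 of 18820 genes (0.383%) differed from untreated skin, 48 higher (0.255%) and 24 lower (0.128%). The same model called 1258 genes 2 h after TPA (6.68%), 2319 at 6 h (12.3%) and 1958 at 12 h (10.4%). The later counts were 1032 (5.48%) after 24 h, 1119 (5.95%) after 48 h, 353 (1.88%) after 72 h and 1532 (8.14%) after 1008 h, all against the same 3 untreated arrays. The median change over all genes at 168 h was 0, with percentiles 5 and 95 at −0.73 and 0.60. A further 16 genes passed the adjusted p but changed by less than 1, 10 of them higher and 6 lower. The 3 arrays of one group lay wholly beyond those of the other for all 72 genes and for 30.8% of all genes. The count fell to 8 without replicate 1 at 168 h and to 27 without replicate 2, and was 51 without replicate 3. It fell to 15 without untreated replicate 2 and 25 without replicate 3, and rose to 145 without untreated replicate 1, where the split turned over to 45 higher and 100 lower (31% higher, against 66.7% with all arrays). Without untreated replicates 2 and 3 together, 2 genes were left, Il1f6 and Krtap13. In all, 8 of the 72 were called whichever single array was left out: 2610528A11Rik, Il1f6, Ang2, Lce1d, Csta1 and Scgb1b27 on the higher side, Krtap13 and 2310057N15Rik on the lower side. Under cyclic loess scaling 248 genes were called, 49.2% of them higher, against 66.7% on the deposited scale.

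**Figure D1:**
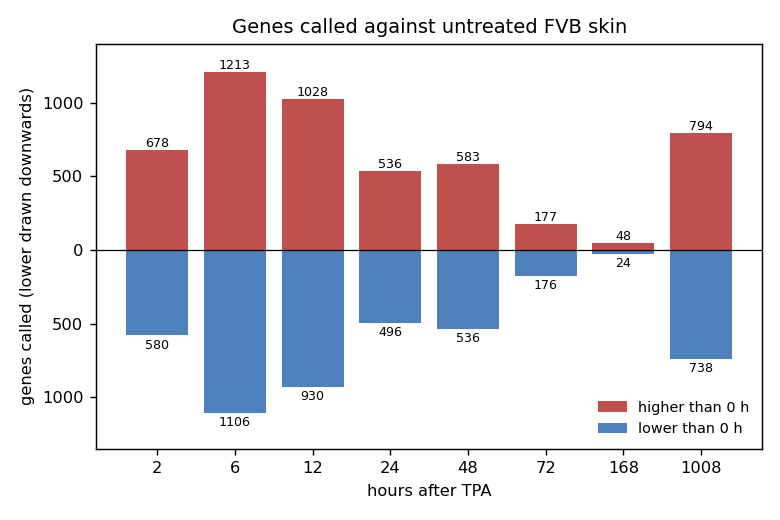
Number of genes called against the 3 untreated FVB arrays at each time after TPA (x axis, hours, not to scale), with higher genes drawn upwards in red and lower genes downwards in blue. The 48 higher and 24 lower genes at 168 h are the fewest of the 8 times, between 353 genes at 72 h and 1532 at 1008 h.

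Among the largest rises were epidermal alarm and protease-inhibitor genes. Il1f6, which encodes interleukin-36 alpha, a keratinocyte cytokine of the interleukin-1 family, read 5.73, 5.92 and 6.59 on the untreated arrays and 10.11, 9.36 and 8.93 at 168 h. The lowest treated array lay more than 2 units above the highest untreated one. Il1f6 was thus higher by 3.38 ± 0.47 (adjusted p = 3.39e-05), a 10.4-fold difference, and it kept its call without any single array (3.06 to 3.65) and without untreated replicates 2 and 3 (3.73, adjusted p = 0.0295). Its relatives on the array leaned the same way without a call: Il1f8, interleukin-36 beta, differed by 1.46 ± 0.42 (adjusted p = 0.0921) and Il1f9, interleukin-36 gamma, by 1.32 ± 0.39 (adjusted p = 0.0988). Of the 26 cytokines and chemokines measured, Il1f6 was the only one called at 168 h, against 0.255% of all genes called higher. At 24 h 13 were higher (2.85% of all genes), and the median of the list went from 1.28 at 24 h to 0.14 at 168 h. Il6 differed by 0.06 ± 0.38 and Cxcl2, a neutrophil attractant, by 0.15 ± 0.57. Il18, a cytokine of the same family that epidermis holds as an inactive precursor, is not in that list. It read 8.89, 9.10 and 9.12 untreated and 10.43, 10.15 and 10.25 at 168 h, a rise of 1.24 ± 0.24 (adjusted p = 0.00671) that lost its call only without replicate 1 at 168 h among single arrays (1.17, adjusted p = 0.118).

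Stefins are small inhibitors of cysteine proteases, and 3 of the 5 stefin A family members measured rose, against 0.255% of all genes. Stfa3 read 3.84, 4.57 and 5.04 untreated and 8.57, 7.69 and 7.25 at 168 h. It was 10.2-fold higher, and the treated arrays lay wholly above the untreated ones (15.6% of all genes). Stfa1 read 3.92, 4.99 and 4.80 against 7.49, 6.70 and 6.52, a 5.04-fold difference. Csta1 was the steadiest, with 6.33, 6.04 and 6.20 against 7.74, 7.75 and 7.65, a rise of 1.52 ± 0.26 (adjusted p = 0.00133). Csta3 and Csta2 differed by 0.82 ± 0.73 and 0.44 ± 0.27 without a call. The calls of Stfa3 (adjusted p = 0.0144) and Stfa1 (adjusted p = 0.0309) were less firm. That of Stfa3 ended without replicate 1 or 2 at 168 h or untreated replicate 2 (2.99 to 3.65 over single arrays left out), and that of Stfa1 ended without any 1 of the 6 arrays (2.01 to 2.54). Stefin A genes are near-identical copies of each other, so which copy a probe set reads is uncertain.

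The 100 bases before the start sites of Stfa1 and Stfa3 are shown because the likeness of these genes reaches into their promoters. The sequences are from RefSeq on GRCm38.p6, chr16:36277048-36277147 on the plus strand for Stfa1 and chr16:36455393-36455492 on the minus strand for Stfa3. Capitals mark the longest stretch around TAAAA that both share, ACCTTTAAAACCC.
Stfa1: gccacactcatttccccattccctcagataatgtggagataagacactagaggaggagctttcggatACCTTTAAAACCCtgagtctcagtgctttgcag
Stfa3: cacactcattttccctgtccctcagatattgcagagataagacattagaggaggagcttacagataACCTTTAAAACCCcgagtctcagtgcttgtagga
The 2 sequences are 83% identical, and the capitals begin 33 and 34 bases before the start. On either strand of the 250 bases before the start, ACCTTTAAAACCC occurs in 8 of 27025 genes (0.0296%) and in 2 of the 31 genes called higher that the promoter table holds, these 2. The stretch was picked after the sequences were seen, and a match describes letters only.

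Gasdermins are proteins that can form membrane pores, and Gsdmc was the 1 of 7 measured that was called higher (0.255% of all genes). Of the 7 changes 6 were above 0, with a median of 0.82. For 5 of the 7 the treated arrays lay wholly above the untreated ones (15.6% of all genes). Gsdmc read 5.22, 5.22 and 5.14 untreated and 7.57, 7.11 and 7.14 at 168 h, a 4.22-fold difference of 2.08 ± 0.42 (adjusted p = 0.0114). It lost its call without replicate 1 at 168 h (1.93, adjusted p = 0.154) or without untreated replicate 2 or 3. Gsdma differed by 1.32 ± 0.41 (adjusted p = 0.112). Stress keratins, small proline-rich proteins and alarm proteins mark regenerating epidermis. Of 24 measured, 20 were called higher at 24 h (2.85% of all genes). At 168 h 22 of the 24 changes were above 0, with a median of 0.36. For 11 of them the treated arrays lay wholly above the untreated ones (15.6% of all genes), and 1 was called (0.255% of all genes). That gene was Sprr2a1, a cornified envelope precursor, at 7.62, 7.83 and 7.24 untreated and 9.57, 9.15 and 9.25 at 168 h. Its rise of 1.76 ± 0.41 (adjusted p = 0.0309) was called without untreated replicate 1 but not without any other single array (1.60 to 1.89), and near-identical Sprr2 copies make its identity uncertain.

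**Figure D2:**
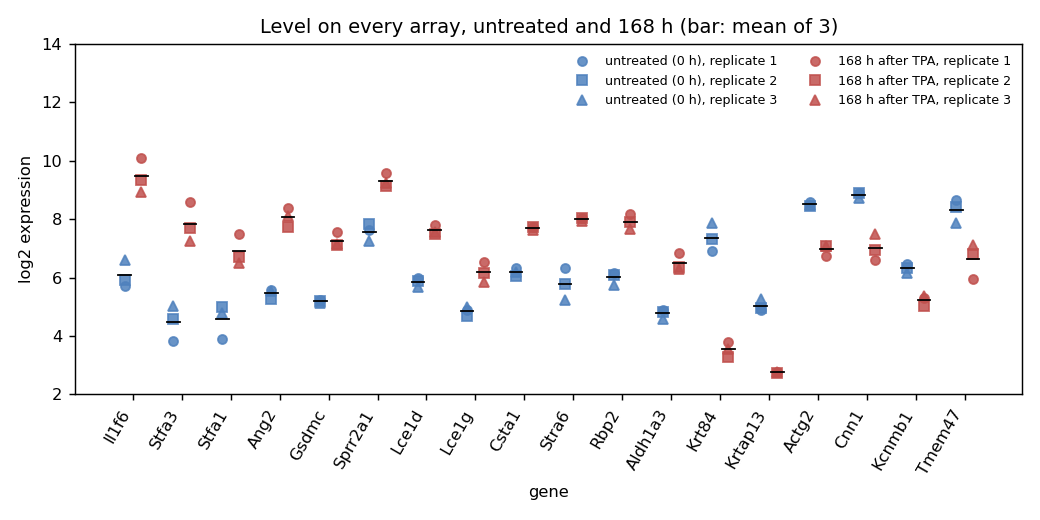
Log2 expression on each of the 3 untreated arrays (blue) and 3 arrays at 168 h (red) for 18 called genes, with marker shapes for the replicates and black bars for group means. In each of the 18 genes the groups do not overlap, from Il1f6 and the stefins, which are higher, to Krt84 and the smooth muscle genes, which are lower.

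Several late cornified envelope genes were among the rises. Of 15 Lce genes measured, in a list drawn up after the values were seen, 5 rose (0.255% of all genes) and none fell (0.128%). All 15 changes were above 0 with a median of 1.02, against 0 for all genes. Lce1d read 5.99, 5.88 and 5.69 untreated and 7.82, 7.51 and 7.55 at 168 h, a 3.41-fold difference of 1.77 ± 0.31 (adjusted p = 0.00224) that held without any single array. Lce6a, already abundant at 9.70, 9.93 and 10.00, reached 11.43, 11.29 and 11.29. Its rise of 1.46 ± 0.27 (adjusted p = 0.00413) lost its call only without replicate 1 at 168 h among single arrays (1.41, adjusted p = 0.0742). Lce1i rose by 1.33 ± 0.29 (adjusted p = 0.0162), with replicate 1 at 10.10 well above replicates 2 and 3 at 9.22 and 9.25, and the value was 1.04 without replicate 1 (adjusted p = 0.31). Lce1g rose by 1.32 ± 0.28 (adjusted p = 0.0149) and Lce1a2 by 1.24 ± 0.27 (adjusted p = 0.0168). The calls of Lce1g and Lce1a2 ended without replicate 1 or 2 at 168 h or untreated replicate 2 or 3, and that of Lce1i without replicate 1 at 168 h or untreated replicate 2 or 3. Over single arrays left out, Lce1g stayed between 1.14 and 1.49 and Lce1a2 between 1.19 and 1.29.

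The promoters of the 4 called Lce1 genes are shown because the genes lie together, were all called higher at 168 h and look alike up to the start site. Their courses differed: at 12 h Lce1g was at 1.08 and Lce1d at 0.03 against untreated skin. From 168 h to 1008 h Lce1a2 changed by −0.93 and Lce1g by 0.57. They are from RefSeq on GRCm38.p6, all on the minus strand: chr3:92670316-92670415 for Lce1a2, chr3:92687211-92687310 for Lce1d, chr3:92752339-92752438 for Lce1g and chr3:92778900-92778999 for Lce1i. Capitals mark ATAAAAGG, the longest stretch around TAAAA that all 4 share, which begins 29 bases before each start.
Lce1a2: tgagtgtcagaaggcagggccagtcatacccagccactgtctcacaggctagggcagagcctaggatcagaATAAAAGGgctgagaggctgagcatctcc
Lce1d: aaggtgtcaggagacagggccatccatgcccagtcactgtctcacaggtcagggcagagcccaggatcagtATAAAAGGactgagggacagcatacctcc
Lce1g: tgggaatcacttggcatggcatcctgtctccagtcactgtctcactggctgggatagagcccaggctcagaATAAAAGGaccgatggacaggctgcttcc
Lce1i: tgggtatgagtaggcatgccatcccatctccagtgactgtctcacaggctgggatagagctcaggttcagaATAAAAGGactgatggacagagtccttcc
The 4 sequences are 70% to 85% identical in pairs. ATAAAAGG on either strand occurs in the 250 bases before the start of 10 of 13 Lce1 genes in the table, called or not, and of 1.83% of all 27025 genes. The table held 48 of the 72 called genes, 31 higher and 17 lower. None of these 48 windows held the AP-1 motif (TGAGTCA or TGACTCA, each the reverse of the other strand), which 5.16% of all windows hold, or the CRE motif TGACGTCA, which 1.77% hold. No match says only that these letters are not in this window.

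Suprabasal and cornified envelope genes of another list leaned upwards without calls. That list also names Lce genes, so its counts can repeat part of the Lce values above. None of its 21 measured genes was called, with limma's unadjusted p under 0.05 for 9 higher and 1 lower, against 14.7% of all genes in either direction. Of the 21 changes 20 were above 0, the median was 0.69, and 18 had their treated arrays wholly above the untreated ones (15.6% of all genes). The largest was Asprv1, a protease that processes filaggrin, at 10.60, 10.51 and 10.57 against 12.86, 12.64 and 12.45, a difference of 2.09 ± 0.54 (adjusted p = 0.0601). Tgm3, which cross-links the envelope, differed by 1.57 ± 0.43 (adjusted p = 0.0766) and Casp14, a caspase of terminal differentiation, by 1.28 ± 0.40 (adjusted p = 0.115). The abundant keratins of the upper layers differed less, Krt1 by 0.25 ± 0.41 and Krt10 by 0.29 ± 0.44, and the basal keratin Krt5 by 0.45 ± 0.50, none of them called. Kallikreins are serine proteases that help shed the cornified layer. All 12 kallikreins and other epidermal proteases measured had changes above 0 (median 0.70). None of these 12 was called, and 5 had an unadjusted p under 0.05 in limma (14.7% of all genes). Klk13 differed by 2.14 ± 0.60 (adjusted p = 0.0842) and Klk8 by 1.27 ± 0.34 (adjusted p = 0.0701). Over the stretch of chromosome 3 from S100a13 to S100a10, chosen after the values were seen, 6 of 57 measured genes rose (10.5%, against 0.255% of all genes) and none fell, with a median of 0.45. The 6 are Sprr2a1 and the 5 Lce genes given above, so the count restates them.

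In the vitamin A pathway 3 genes rose (0.255% of all genes), while other members read lower without a call. Retinol enters cells through Stra6, is held by cellular retinol-binding proteins such as Rbp2, and is oxidised to retinoic acid by enzymes that include Aldh1a3. Stra6 read 6.34, 5.78 and 5.23 untreated and 8.04, 8.05 and 7.92 at 168 h, a 4.67-fold difference of 2.22 ± 0.43 (adjusted p = 0.00671). The treated arrays lay close together and the untreated arrays spread over 1 unit. Rbp2 read 6.17, 6.10 and 5.75 against 8.18, 7.92 and 7.66, a rise of 1.91 ± 0.47 (adjusted p = 0.0469) whose call ended without any 1 of the 6 arrays (1.78 to 2.04). Aldh1a3 read 4.91, 4.84 and 4.59 against 6.85, 6.35 and 6.30, a rise of 1.72 ± 0.32 (adjusted p = 0.00413) that lost its call only without replicate 1 at 168 h among single arrays (1.55, adjusted p = 0.114). The call of Stra6 ended without replicate 1 at 168 h or untreated replicate 2 or 3 (1.95 to 2.50 over single arrays left out). In a list of 17 measured retinoid genes, drawn up after these 3 were seen, none of the others was called, 10 changes were below 0 and the median was −0.20. Over all 17, these 3 included, the unadjusted p in limma was under 0.05 for 4 higher and 3 lower (14.7% of all genes in either direction). Treated arrays lay wholly above the untreated ones for 7 and wholly below for 4 (15.6% and 15.3% of all genes). The 3 genes that led to the list are among the 4 and the 7 that were higher, so these counts partly restate them. Lrat, which stores retinol as esters, read 6.75, 6.83 and 6.52 untreated and 4.57, 5.61 and 5.67 at 168 h, a difference of −1.41 ± 0.42 (adjusted p = 0.1). The lowest change was that of Aldh1a1, another retinal-oxidising enzyme, at −1.56 ± 0.64 (adjusted p = 0.242). Dhrs9, a retinol dehydrogenase, differed by 1.43 ± 0.37 (adjusted p = 0.063) and Crabp2, a retinoic acid carrier, by 0.33 ± 0.42.

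Other rises fell into no list. The largest, 2610528A11Rik, an unnamed gene outside the naming rule, read 5.27, 5.63 and 5.54 untreated and 9.46, 8.87 and 8.52 at 168 h, an 11.1-fold difference (adjusted p = 0.000469) called without any single array. Ang2 as named on this array is angiogenin 2, a secreted ribonuclease, and it rose by 2.62 ± 0.44 (adjusted p = 0.00117), from 5.58, 5.27 and 5.53 to 8.39, 7.74 and 8.11. Igfl3, an insulin-like growth factor family member, rose 4.37-fold, Mill1, a relative of class I histocompatibility genes, 3.45-fold, Slurp2, a secreted epithelial protein, 3.32-fold, and Lipk, an epidermal lipase, 2.91-fold. Their adjusted p-values were 0.00671, 0.00413, 0.0128 and 0.0121, and each lost its call without replicate 1 at 168 h, with changes of 2.07, 1.61, 1.40 and 1.41. Igfl3 also lost it without untreated replicate 2, and Slurp2 and Lipk without replicate 2 at 168 h or untreated replicate 2 or 3. Atp12a, a proton and potassium pump, rose by 2.15 ± 0.51 (adjusted p = 0.0325), but its other probe set differed by −0.18 and the call ended without any 1 of the 6 arrays (1.82 to 2.38). Scgb1b27, a secretoglobin, rose by 1.39 ± 0.24 (adjusted p = 0.00146), and its other probe set gave 0.47. The remaining rises, between 1.02 and 2.00, included Edn1 (endothelin 1), Nlrp10, Pim1 and Elf3, an epithelial transcription factor, and 3 small RNA genes, Snord118, Snord33 and Mir703.

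Genes lower after 1 week included contractile proteins of smooth muscle. Cnn1, calponin 1, read 8.89, 8.88 and 8.73 untreated and 6.59, 6.95 and 7.50 at 168 h, a 3.54-fold difference of −1.82 ± 0.39 (adjusted p = 0.0149). Actg2, smooth muscle gamma actin, read 8.59, 8.44 and 8.49 against 6.74, 7.08 and 7.10, a change of −1.53 ± 0.31 (adjusted p = 0.0085). Kcnmb1, a subunit of the calcium-activated potassium channel of smooth muscle, read 6.48, 6.35 and 6.14 against 5.30, 5.03 and 5.38 (−1.08 ± 0.25, adjusted p = 0.0267). In all 3 the groups were far apart and the untreated arrays close together. In a list of 15 smooth muscle genes drawn up after these were seen, these 3 fell (0.128% of all genes) and none rose. All 15 changes were below 0, the median was −1.09, and 13 had treated arrays wholly below untreated (15.3% of all genes). Both counts include the 3 genes that led to the list and so partly restate them. Acta2 differed by −1.65 ± 0.49 (adjusted p = 0.1), Tagln by −1.14 ± 0.32 (adjusted p = 0.0853) and Myh11 by −1.22 ± 0.43 (adjusted p = 0.169). Averaged over the list, the 168 h arrays lay 1.28, 0.86 and 0.83 below the untreated mean, with replicate 1 lowest. In whole skin, fewer cells of a type and less RNA per cell cannot be told apart. The call of Cnn1 ended without replicate 1 or 2 at 168 h or untreated replicate 2 or 3 (−1.61 to −2.07), that of Actg2 without replicate 1 at 168 h or untreated replicate 2 (−1.42 to −1.60), and that of Kcnmb1 without any 1 array (−0.98 to −1.17). Of 18 skeletal muscle genes none was called or had an unadjusted p under 0.05 in limma, and all 18 changes were below 0.

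A few hair genes were the strongest falls. Krt84, a hair cuticle keratin, read 6.90, 7.31 and 7.87 untreated and 3.80, 3.29 and 3.56 at 168 h, a difference of −3.81 ± 0.85 (adjusted p = 0.0199). Krtap13, a keratin-associated protein, read 4.90, 4.95 and 5.28 against 2.77, 2.73 and 2.76, at −2.29 ± 0.28 the call with the lowest adjusted p of the comparison (4.89e-06). It held without any single array (−2.17 to −2.36) and without untreated replicates 2 and 3 (adjusted p = 0.0372). The untreated level of Krtap13 was itself low, under the median of 5.51 to 5.61 of these arrays. The call of Krt84 held without untreated replicate 1 and ended without any other single array (−3.56 to −4.04). The unnamed genes 2310057N15Rik and 2310079G19Rik fell by 2.62 and 1.99 (adjusted p = 1.54e-05 and 0.0308). Most hair genes were not called: 1 of 10 hair shaft keratins and 1 of 39 keratin-associated proteins fell (0.128% of all genes), with medians of −0.38 for both lists. None of 12 inner root sheath genes was called or had an unadjusted p under 0.05 in limma, with a median of −0.27. Treated arrays lay wholly below untreated for 4 of the 10, 22 of the 39 and 3 of the 12 (15.3% of all genes). They lay wholly above for 2 of the 39 keratin-associated proteins (15.6% of all genes). Krt36 differed by −2.12 ± 0.57 (adjusted p = 0.0743) and Krtap7-1 by −2.62 ± 1.26 (adjusted p = 0.321), with arrays of the groups apart in both.

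Among the other falls, Prg4, which encodes the lubricating glycoprotein lubricin, read 6.01, 5.94 and 6.16 against 3.12, 3.80 and 4.37, a 4.84-fold difference (adjusted p = 0.0206). Tmem45b and Tmem47, genes of membrane proteins, fell by 1.76 and 1.69 (adjusted p = 0.0149 and 0.00748). Stat4, a transcription factor of lymphocyte cytokine signalling, fell by 1.52 (adjusted p = 0.0206), from 5.12, 5.66 and 5.94 to 3.87, 4.03 and 4.25. Ppargc1a, a coactivator of mitochondrial genes, fell by 1.40 (adjusted p = 0.0447), with −0.82 at its other probe set. Npas2, a clock transcription factor, was the 1 of 15 clock genes called, against 0.128% of all genes called lower. It read 7.48, 7.63 and 7.56 against 6.33, 6.53 and 6.34 (−1.16 ± 0.27, adjusted p = 0.0309). Per2 differed by 0.96 ± 0.29 (adjusted p = 0.112) and Tef by 0.95 ± 0.27 (adjusted p = 0.0826), and sampling hours are not given in the labels. Pkp2, a desmosome plaque protein, fell by 1.02 (adjusted p = 0.0174). Each of these calls ended without replicate 1 at 168 h, where Prg4 was at −1.95, Tmem45b at −1.41, Tmem47 at −1.36, Stat4 at −1.44, Ppargc1a at −1.33, Npas2 at −1.12 and Pkp2 at −1.02. All 7 calls also ended without untreated replicate 2, those of Prg4, Stat4, Ppargc1a, Npas2 and Pkp2 without untreated replicate 3, and that of Tmem45b without untreated replicate 1. Of the other 168 h arrays, replicate 2 was needed by Prg4, Tmem45b, Stat4, Ppargc1a and Npas2, and replicate 3 by Ppargc1a, Npas2 and Pkp2.

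The course of the called genes over the FVB times was followed on the same 3 untreated arrays, so the values are given side by side and not as independent evidence. The 48 higher genes had a median change of 0.62 after 2 h and 0.61 after 6 h. The median was 1.27 after 24 h, then 1.55 (72 h), 1.40 (168 h) and 1.10 (1008 h). Of the 48, 29 were also called higher at 24 h (2.85% of all genes) and 40 at 72 h (0.94%). The 24 lower genes had medians of −0.11, −0.63, −0.83, −1.23, −1.34 and −1.19 at those times, with 6 called lower at 24 h (2.64% of all genes) and 18 at 72 h (0.935%). Individual courses differed. Aldh1a3 was highest at 6 h (3.46) and Rbp2 at 12 h (3.47), and they stood at 1.72 and 1.91 at 168 h. Lce1d was at −0.31 at 6 h, 1.38 at 24 h and 1.72 at 72 h, close to its 1.77 at 168 h. Slurp2 was at −0.68 at 12 h and 1.71 at 72 h. Gpr37, an orphan receptor gene, was at −1.94 at 6 h and 1.09 at 168 h, so a gene called higher at 168 h read below untreated from 2 h to 48 h.

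**Figure D3:**
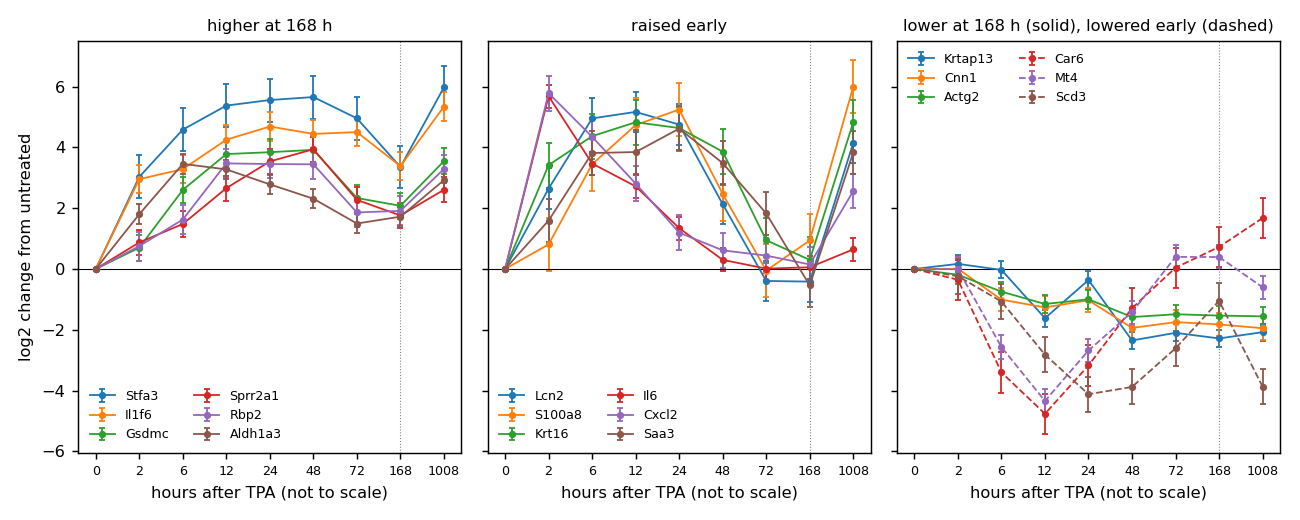
Log2 change from untreated FVB skin at each time (x axis, hours, not to scale; points are fitted changes, bars standard errors, dotted line 168 h) for genes higher at 168 h (left), genes raised early (middle) and genes lower at 168 h or lowered early (right). Il1f6 and Stfa3 stand at 3.38 and 3.35 at 168 h, while Lcn2, Krt16 and Il6, raised by up to 5.17, 4.83 and 5.68 earlier, stand at −0.42, 0.30 and 0.06.

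Setting 168 h against 24 h, which uses no untreated array, shows what had receded. In this comparison 844 genes differed (4.48%), 381 higher (2.02%) and 463 lower (2.46%) at 168 h. The largest falls were in alarm and wound genes. Lcn2, an iron-trapping defence protein, was lower by 5.17 ± 0.67 (adjusted p = 8.81e-07), Saa3, an acute-phase protein, by 5.16 ± 0.72, Csta3 by 4.41 ± 0.73, Krt16, a keratin of wounded epidermis, by 4.34 ± 0.74 and S100a8, a calprotectin subunit, by 4.31 ± 0.88. Against untreated skin none of these 5 was called, with values from −0.54 (Saa3) to 0.94 (S100a8). Mitosis genes were lower as well, 23 of 24 against 24 h, among them Ccna2 by 2.21 ± 0.27 (adjusted p = 5.66e-07) and Kif2c by 2.02 ± 0.31. Against untreated skin 0 of these 24 were called and 10 had a limma unadjusted p under 0.05, all lower, against 14.7% of all genes in either direction. The median was −0.43, and 17 had their treated arrays wholly below the untreated ones (15.3% of all genes), Ccna2 at 7.67, 7.81 and 8.00 against 8.71, 8.77 and 8.91. Of the stress keratin list 18 of 24 were lower than at 24 h, and of the cytokines 9 of 26. The largest rises were in genes that had read below untreated skin at 24 h: Car6, a secreted carbonic anhydrase (3.90 ± 0.66), Mt4, the epithelial metallothionein (3.07 ± 0.38), and Scd3, a sebaceous fatty acid desaturase (3.07 ± 0.58), were at −3.17, −2.68 and −4.12 then. At 168 h these stood at 0.72, 0.39 and −1.05 against untreated, without a call. Of the 48 genes higher at 168 h than in untreated skin, 8 were lower than at 24 h, among them Stfa3, Gsdmc, Sprr2a1 and Igfl3, and 5 were higher, Slurp2, Scgb1b27, Nlrp10, Gpr37 and Lysmd1. Without any 1 array of these groups the count was 584 to 929, and under array median centring 34.6% of called genes were higher, against 45.1%.

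**Figure D4:**
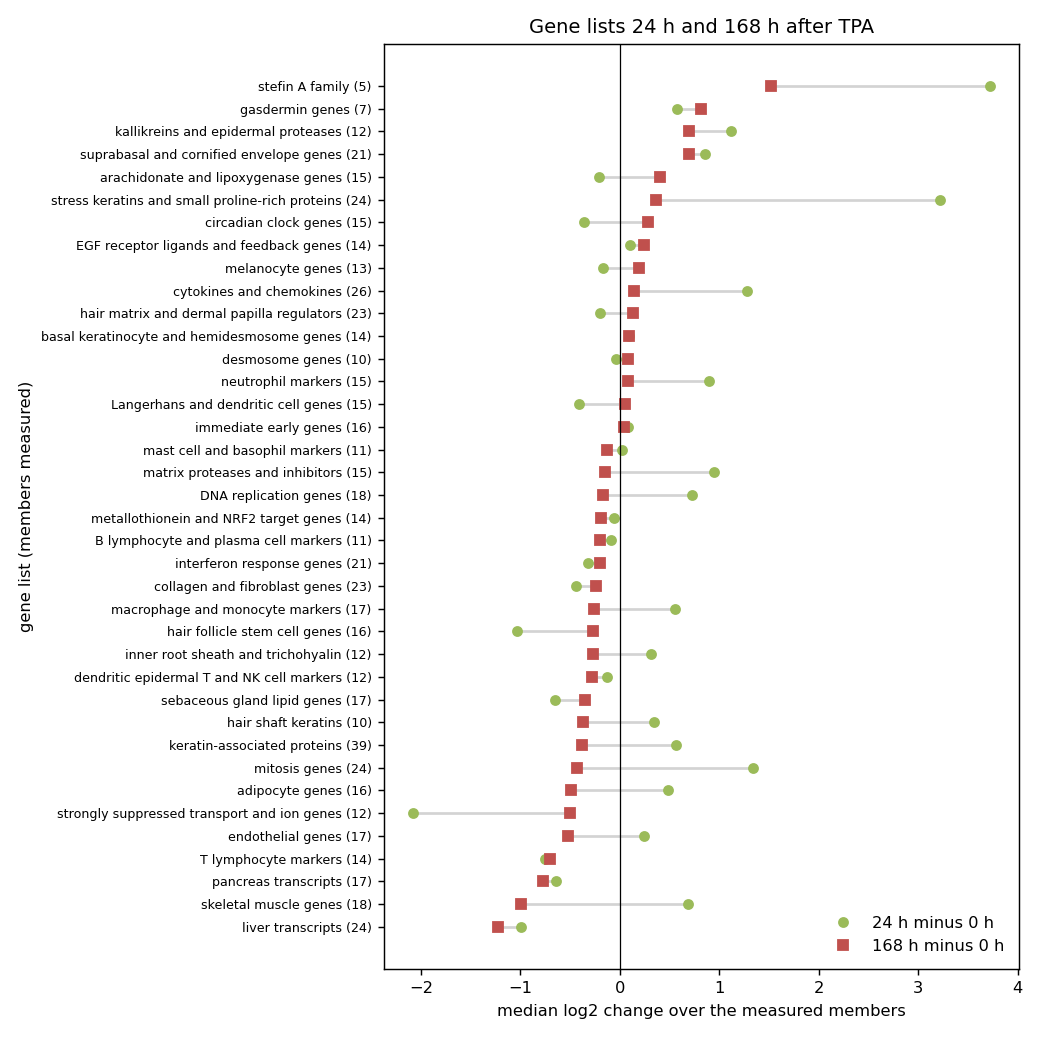
Median log2 change from untreated FVB skin over the measured members of 38 gene lists (member numbers in brackets) at 24 h (green) and 168 h (red). Stress keratins move from 3.22 to 0.36, mitosis genes from 1.34 to −0.43, the transport and ion genes from −2.08 to −0.50 and the stefin A family from 3.73 to 1.52. The transport and ion genes were listed because TPA lowered them in earlier results of these data.

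Between 72 h and 168 h the test called 1 gene (0.00531%), Tmem231, a component of the primary cilium, which was higher by 1.09 ± 0.19 (adjusted p = 0.00962), and limma gave 1442 genes an unadjusted p under 0.05 (7.66%). Tmem231 read 6.87, 6.46 and 6.20 untreated and 7.34, 7.18 and 7.48 at 168 h, so it was also higher than in untreated skin by 0.82 ± 0.19, under the threshold of 1. None of the 72 genes that differed from untreated skin differed between 72 h and 168 h, with Il1f6 at −1.12 ± 0.47 (adjusted p = 0.558) and Lce1d at 0.05 ± 0.31. The count was 147 without 72 h replicate 1, 0 without 72 h replicate 2 or 3 or 168 h replicate 1 or 3, 5 when FVB arrays were fitted alone, Tmem231 not among them, and 27 under cyclic loess.

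Levels differed again at the last time. Between 168 h and 1008 h, 1143 genes differed (6.07%), 617 higher (3.28%) and 526 lower (2.79%) at 1008 h. Hair genes led the rises, with Krtap8-1 higher by 8.91 ± 1.34, Krtap7-1 by 8.71 ± 1.26 and Krt33a by 8.01 ± 1.23. None of these had been called at 168 h against untreated skin. Krtap13, which had been called lower, was not called between 168 h and 1008 h (0.21 ± 0.28, adjusted p = 0.722). Nor were 2310057N15Rik (0.23) and 2310079G19Rik (−0.09). In all 12 of 12 inner root sheath genes, 38 of 39 keratin-associated proteins and 9 of 10 hair shaft keratins were higher, as were 22 of 24 mitosis genes and 18 of 24 members of the stress keratin list. S100a8 was higher by 5.06 ± 0.88 and Krt16 by 4.53 ± 0.74. Ifitm6, an interferon-induced membrane protein, was lower by 4.96 ± 0.69, Mrgprb3, a receptor of the Mas-related family, by 4.24 ± 0.64 and Krt77, a suprabasal keratin, by 3.54 ± 0.56. Of the 48 genes higher at 168 h than in untreated skin, 7 were higher still at 1008 h, Il1f6 by 1.96 ± 0.47 (adjusted p = 0.00309) and Stfa3 by 2.62 ± 0.71 (adjusted p = 0.00926) among them, and 8 were lower, Mill1 by 1.31 ± 0.33 and Fam3b by 1.33 ± 0.28 among them. Il18 differed by −0.73 ± 0.24, under the threshold of 1. Of the 24 lower genes, Krt84 and Tmem45b were higher at 1008 h and the smooth muscle genes were not, with Cnn1 at −0.13 ± 0.39 and Actg2 at −0.03 ± 0.31. Mice at 1008 h were older, and the number of doses behind this group is not settled here either. Age, time and number of doses cannot be told apart.

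Markers of inflammatory cells were not called at 168 h. None of 15 neutrophil markers was called (median 0.08), against 5 higher at 24 h (2.85% of all genes). At 168 h limma's unadjusted p was under 0.05 for 1 higher and 1 lower, against 14.7% of all genes in either direction. Cxcr2, a chemokine receptor of neutrophils, read 5.25 to 5.43 on the untreated arrays and 7.15, 6.39 and 5.62 at 168 h (1.07 ± 0.56, adjusted p = 0.369). None of 17 macrophage markers (median −0.26), 15 Langerhans and dendritic cell genes (0.05), 11 mast cell and basophil markers (−0.12) or 21 interferon response genes (−0.20) was called, and the unadjusted p was under 0.05 for 1 macrophage marker, lower, and 1 dendritic cell gene, higher. None of 17 endothelial genes was called and 6 had an unadjusted p under 0.05 in limma, all lower, with a median of −0.53. Replicate 1 at 168 h was the lowest array on that list, at −0.77, against −0.24 and −0.44. A list of 12 transport and ion genes was made because TPA lowered them in earlier results of these data. That 10 were lower at 24 h (2.64% of all genes) largely follows from this choice. At 168 h 0 were lower (0.128% of all genes), and 4 had an unadjusted p under 0.05 in limma (14.7% of all genes).

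A single array from the FVB and Spret/Ei cross (F1) at 168 h gives the only other view of this time, and with 1 array there is no test. Set against 4 untreated F1 arrays, it lay above all of them for 27 of the 48 genes called higher in FVB, below all for 2 and among them for 19, where 24.0% of all genes lay above all. Il1f6 read 10.33, above the untreated F1 range of 7.85 to 8.62, and Slurp2 8.53, above 6.69 to 7.13. Gsdmc at 6.72 and Stfa1 at 6.07 lay within their untreated ranges. Of the 24 genes lower in FVB, the F1 array lay below all untreated arrays for 3 (15.2% of all genes), Krtap13, Cd59b and Ppargc1a, and above all for 7. Cnn1 at 7.78 and Actg2 at 7.29 lay within the untreated F1 range. The F1 array belongs to batch 2, and 2 of the 4 untreated F1 arrays share that label. Against those 2 alone it lay above both for 31 of the 48 higher genes and below both for 4, and above both for 13 of the 24 lower genes and below both for 5, where 40.1% of all genes lay above and 27.1% below.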

How the data were processed

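Expression was measured as biotin-labelled RNA on Affymetrix arrays. The deposited values are log2 expression values of 35556 probe sets, and RMA is the method named in the submitters' processing notes, without a version. RMA forces all arrays onto a like distribution, so a shift common to most genes would not show. Batch treatment before deposit and the annotation build are not given in the sources used here.

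Probe sets with 1 symbol in the platform annotation (21218) were kept, those with several (1881) or unlisted (12457) were left out, and the probe set with the highest mean stood for each of 18820 genes. limma 3.58.1 in R 4.3.3 fitted 27 group means and a batch term to the 66 arrays with a strain and a time (38 residual degrees of freedom), with the spread of a gene estimated from all of them. With 3 arrays against 3, permutation cannot go below p = 0.1 and was not used. In simulated arrays for 168 h against 0 h over 18820 genes, 87 of 100 planted changes of 1.5 were recovered. Of planted changes of 3, 100 of 100 were recovered, and there was 1 false call. These numbers hold for the simulated arrays only and do not give the share of false calls on the real arrays. On the real arrays the count for 168 h against 0 h was 8 without replicate 1 at 168 h and 145 without untreated replicate 1.

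Named genes were the 15 largest rises and falls among called genes with ordinary symbols whose groups did not overlap, up to 4 members of each list, and the 5 largest (3 at early times) of the other comparisons, and others are named where said or as list members. The members, the 39 lists and this rule were chosen with earlier results of these data known, and 3 further lists (Lce, retinoid, smooth muscle) after these values were seen. Deviations of same-numbered arrays from their group means correlated at 0.274, 0.089 and 0.128, so replicate numbers were not taken as pairs. The alternatives were other scalings, filters, models and arrays left out.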

Additional observations from a re-analysis of the deposited data

How the results depend on the processing

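Of the 72 genes called at 168 h, all kept their direction in every setting run except Atp12a, which read −0.18 with its lowest-mean probe set, a setting chosen after seeing the data. Only Il1f6 and Krtap13 were called in every setting run for them. The count of 72 became 189 with FVB arrays fitted alone, 292 with only the 2 groups compared, 248 under cyclic loess, 20 at an adjusted p under 0.01, and 2 without untreated replicates 2 and 3, with a range of 8 to 145 when 1 array was left out. The count of 1 for 168 h against 72 h became 5 with FVB arrays alone, 0 with only the 2 groups compared and 27 under cyclic loess, and ranged from 0 to 147 with 1 array left out. Without the fold threshold 1858 genes differed between 168 h and 24 h and 2171 between 1008 h and 168 h. The causes were not tested. A replicate block in FVB arrays alone gave 181 genes for 168 h against 0 h and 14 against 72 h, and same-numbered arrays were not all each other's best match. An array left alone in a group was assumed to vary like the other groups. Calls therefore rest on few arrays, and a gene not called at 168 h may still differ: 2768 genes (14.7%) had an unadjusted p under 0.05 in limma.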
